A study of Mus musculus with 3 samples.

Results

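The calcium/calmodulin-dependent protein kinases and the kinases that activate them were examined in cultured mouse inhibitory neurons before and after depolarization. The members were 10 genes of the 25562 in the files, taken by symbol and not by any measured value: the CaMKII subunit genes Camk2a, Camk2b, Camk2d and Camk2g, the CaMKIV gene Camk4, the CaMKI genes Camk1, Camk1d and Camk1g, and the CaM kinase kinase genes Camkk1 and Camkk2. Wild-type neurons of the C57Bl/6 background came from the medial ganglionic eminence (MGE), an embryonic source of cortical interneurons, at embryonic day 14. They spent the night from day 9 to day 10 in vitro in tetrodotoxin, which blocks sodium channels, and AP-5, which blocks NMDA receptors. On day 10 they were then kept in 55 mM extracellular KCl for 0 h, 1 h or 6 h, so the silencing step was shared by all 3 times. Each time is 1 library of ribosome-depleted total RNA whose reads keep their strand. There are no replicates, so the spread from culture to culture is unknown, no test was run, and every interval below covers counting error only.

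Calmodulin loaded with calcium switches these kinases on. CaMKII assembles from several subunits into a holoenzyme that phosphorylates itself and can then stay active after calcium has dropped, and it is abundant at synapses. CaMKI and CaMKIV act in a cascade, since each needs phosphorylation by a CaM kinase kinase for full activity. CaMKIV is best known in the nucleus, where it phosphorylates CREB, and CaMKI for its part in neurite growth. In the cortex, the alpha subunit of CaMKII is widely used as a marker of excitatory neurons.

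Depth was 8996897 uniquely mapped reads at 0 h, 8549377 at 1 h and 8579378 at 6 h, of which 24.3%, 28.7% and 28.9% were sense exonic reads. A count of 0 allows up to 3 reads, between 1.19 and 1.34 scaled RPM (reads per 1000000 scaled exonic reads). The members together held 2842, 3024 and 3137 exonic reads, and each had at least 64 in every library. The labelled cell type was checked with marker lists. The 10 interneuron markers all had at least 53 exonic reads at every time, among them Gad1, which encodes a GABA-synthesizing enzyme, with 2787, 3457 and 5361 reads at 0, 1 and 6 h, and Lhx6, a transcription factor of this lineage, with 838, 645 and 496. The list's median log2 ratio was -0.01 at 1 h and -0.03 at 6 h over 0 h. None of 10 excitatory cortical markers reached 20 reads in any library. Astrocyte and radial glia markers were present, at a summed 2087, 2154 and 2343 scaled RPM, and 8 of 8 had at least 20 reads in a library. The 7 oligodendrocyte lineage markers summed to 142, 141 and 176 scaled RPM, and 5 had at least 20 reads in a library. By the 2-fold rule given below, 1 of these was higher and 1 lower at 6 h over 0 h, beside 4.92% and 5.42% of all genes. The 6 microglia markers summed to 0.446 scaled RPM at 0 h and to 0 at 1 and 6 h. In such bulk RNA, fewer cells of a type and less RNA per cell cannot be told apart.

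The study looked for genes that respond to activity, and no CaM kinase gene differed 2-fold in its exonic reads between any 2 times. The differences that came nearest were Camk1, with a ratio of 1.51 at 1 h over 0 h, and Camk2a, with 0.640 at 1 h. Camk2d and Camk1d each stood at 1.29 at 6 h over 0 h. A gene was called when its ratio of scaled reads was at least 2 or at most 0.5, its 95% counting interval left out 1, and its reads reached 20 in 1 library of the pair. At 1 h against 0 h, 0 of 10 members were called, beside 3.0% of the 10093 genes compared (1.58% higher and 1.43% lower). At 6 h against 0 h it was also 0 of 10, beside 10.3% of 10095 genes (4.92% higher and 5.42% lower). At 6 h against 1 h it was again 0 of 10, beside 8.8% of 10137 genes (4.17% higher and 4.63% lower). The interval alone lay above 1 for 1 member (Camk1) and below 1 for 1 member (Camk2a) at 1 h, beside 12.1% and 12.9% of all genes. At 6 h against 0 h it lay above 1 for 3 members (Camk2d, Camk1 and Camk1d) and below 1 for 3 (Camk2a, Camk2b and Camk2g), beside 23.2% and 21.0% of all genes. At 6 h against 1 h it lay above 1 for Camk2d and Camk1d and below 1 for Camk2g, beside 21.5% and 17.8%. Scaling matters here: with all mapped reads as the scale, 5 members lay above 1 at 1 h and none below 1 at 6 h, and with total exonic reads Camk1 at 6 h gave 1.33 (0.984 to 1.81). Under each of the scalings tried, the intervals of Camk1 and Camk2a at 1 h, and of Camk2d and Camk1d at 6 h, stayed on their side of 1. The members' median log2 ratio was -0.05 at 1 h and 0.07 at 6 h, each against 0 h, and the median of all genes compared was 0.01 and 0.00. The exonic ratios of the members lay between 0.640 and 1.51 at 1 h and between 0.792 and 1.42 at 6 h.

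**Figure D1:**
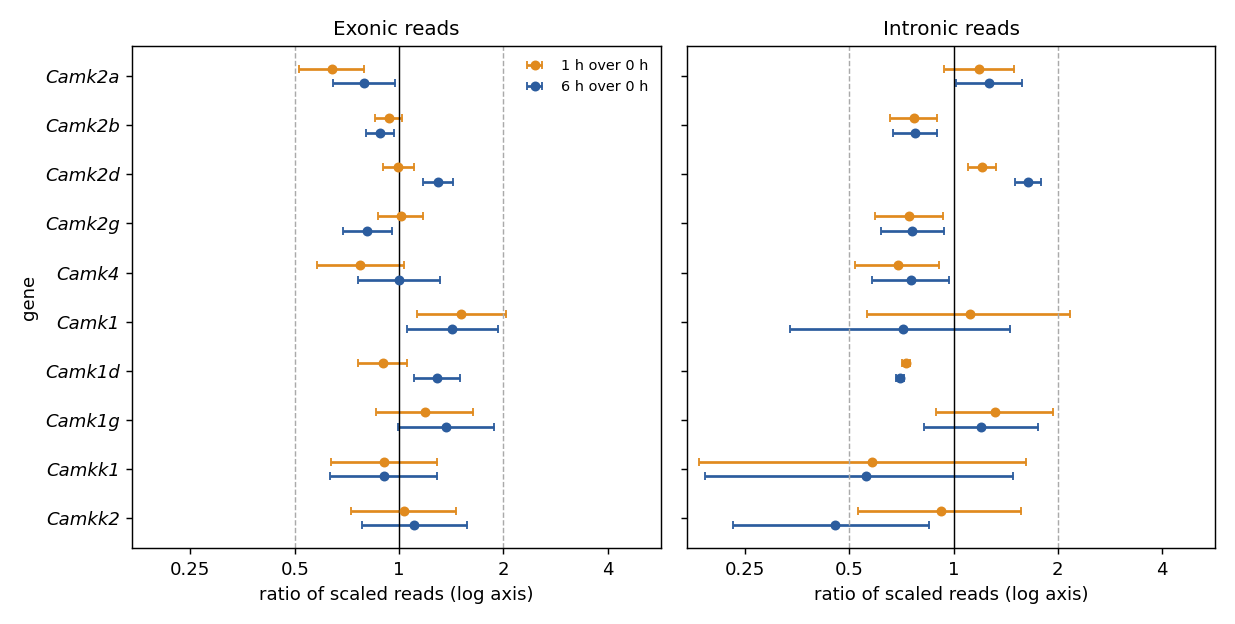
Ratio of scaled reads over the 0 h library for each CaM kinase gene, exonic reads on the left and intronic reads on the right, both on a log axis. Points are single ratios (1 h orange, 6 h blue) with 95% counting intervals, and dashed lines mark 0.5 and 2. All exonic points lie between the dashed lines, and the intronic point of Camkk2 at 6 h is the only one with its interval below 1 that lies left of 0.5.

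Levels per length gave the order of the genes. At 0 h the CaMKII beta gene Camk2b had 103.8 scaled exonic RPM per kilobase (interval 97.2 to 110.7), Camk2d had 68.5 (63.5 to 73.8) and Camk2g had 40.6 (36.4 to 45.2). These 3 genes differed from each other and from every lower member beyond their counting intervals. From Camk1, at 23.3, downward through Camk1d, Camk2a, Camk4, Camk1g, Camkk2 and Camkk1, which was lowest at 8.77, each interval overlapped the next. At 1 h the order began in the same way, with 96.8 for Camk2b, 68.2 for Camk2d and 41.1 for Camk2g, but the interval of Camk1, at 35.2, overlapped that of Camk2g. At 6 h the intervals of Camk2b (91.3) and Camk2d (88.5) overlapped each other, as did those of Camk1 (33.3) and Camk2g (32.9). Camkk1 had the lowest value at all 3 times, but its interval overlapped that of Camkk2 each time.

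**Figure D2:**
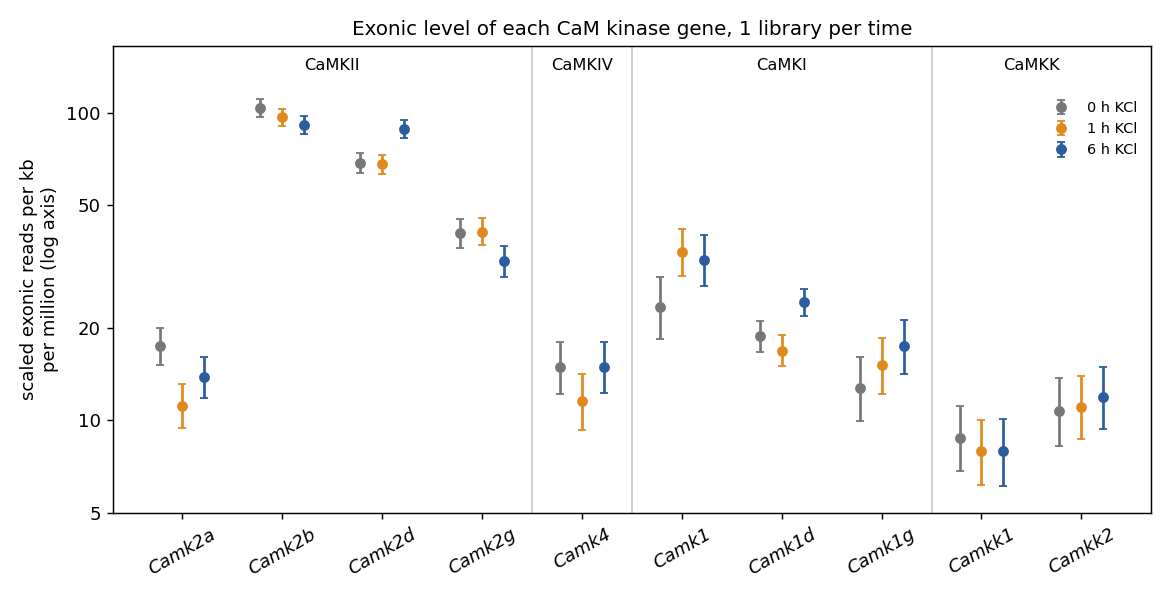
Exonic level of each CaM kinase gene in scaled exonic RPM per kilobase on a log axis, at 0 h (grey), 1 h (orange) and 6 h (blue) of KCl, with 95% Poisson counting intervals. Camk2b is highest at 0 and 1 h, and at 6 h Camk2d, at 88.5, overlaps it at 91.3.

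The balance of the CaMKII subunit genes differed after 6 h. Camk2d, the delta subunit gene (mm9, chr3:126299891-126547972, plus strand, 22 exons in the files), had 685, 764 and 936 exonic reads at 0, 1 and 6 h. The 6 h library is the high one. Its exonic ratio was 1.29 (1.17 to 1.43) at 6 h and 0.995 (0.896 to 1.10) at 1 h, each over 0 h. Camk2b, the beta subunit gene, whose product also binds actin (chr11:5869675-5965751, minus strand, 21 exons), had 929, 972 and 864 exonic reads. Its exonic ratio was 0.933 (0.852 to 1.02) at 1 h and 0.880 (0.801 to 0.966) at 6 h. Camk2d over Camk2b, per length, was 0.970 at 6 h, against 0.660 at 0 h, a change of 1.47-fold (1.28 to 1.69), and 0.704 at 1 h, a change of 1.07-fold (0.927 to 1.23). That ratio needs no scaling between libraries.

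Camk2a and Camk2g, the alpha and gamma subunit genes, had the lower shares. Camk2a (chr18:61085286-61147798, plus strand, 19 exons) had 209, 150 and 175 exonic reads at 0, 1 and 6 h, so both KCl libraries lay below the 0 h library. Its exonic ratio over 0 h was 0.640 (0.515 to 0.793) at 1 h, the lowest of the 10 members, and 0.792 (0.644 to 0.973) at 6 h. Camk2a over Camk2b, per length, was 0.115 at 1 h, against 0.168 at 0 h, a change of 0.686-fold (0.542 to 0.867), and at 6 h the change was 0.900-fold (0.717 to 1.13). Camk2g (chr14:21554097-21613310, minus strand, 21 exons) had 337, 382 and 289 exonic reads, with a ratio of 1.01 (0.871 to 1.17) at 1 h and 0.811 (0.691 to 0.952) at 6 h. Of the per-length level summed over the 4 subunit genes, Camk2a took 7.57%, 5.14% and 6.09% at 0, 1 and 6 h, and Camk2d took 29.7%, 31.4% and 39.1%. Camk2b took 45.1%, 44.6% and 40.3% and Camk2g took 17.6%, 18.9% and 14.5%. The sum itself was 230.3, 217.2 and 226.5 scaled RPM per kilobase.

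Since Camk2a is used as an excitatory marker, the excitatory list is set beside it. Its 10 genes summed to 6.25, 4.38 and 4.22 scaled RPM at 0, 1 and 6 h. Neurod2, Emx1 and Neurod1 were at 0 in all 3 libraries, and the vesicular glutamate transporter genes Slc17a7 and Slc17a6 had 1 read each at 1 h and none at 0 and 6 h. Camk2a itself stood at 93.3 scaled RPM at 0 h.

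Exonic reads were split into coding sequence and 3' UTR after the whole-gene values were known. In Camk2a the ratio of the 3' UTR was the lower one. Its 3' UTR had 85 and 92 reads at 1 and 6 h, against 139 at 0 h, with ratios of 0.545 (0.411 to 0.719) and 0.626 (0.476 to 0.820). The coding sequence had 60 and 72 reads at 1 and 6 h, against 65 at 0 h, with ratios of 0.823 (0.570 to 1.19) and 1.05 (0.739 to 1.49). The intervals of the coding ratio and the 3' UTR ratio overlap at both times. In Camk2g, the 3' UTR had 131 reads at 6 h, against 178 at 0 h, a ratio of 0.696 (0.551 to 0.877). Its coding sequence had 155, against 157, a ratio of 0.934 (0.743 to 1.17), and here too the intervals overlap. In Camk2d both parts were higher at 6 h, with a coding ratio of 1.22 (1.07 to 1.39) and a 3' UTR ratio of 1.36 (1.16 to 1.60). For Camk2b the 6 h ratios were 0.898 (0.788 to 1.02) in the coding sequence and 0.850 (0.740 to 0.977) in the 3' UTR.

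**Figure D3:**
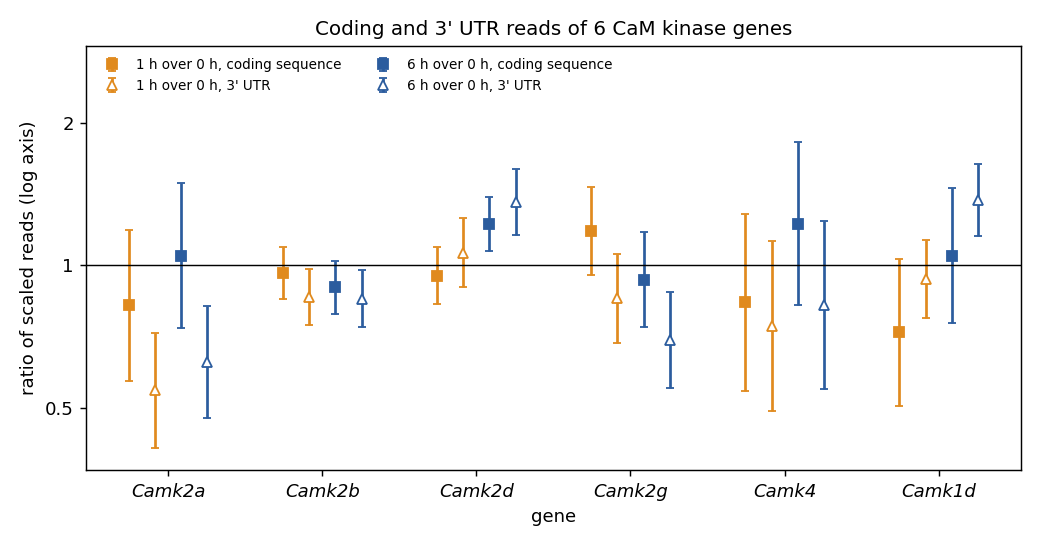
Ratio over the 0 h library of coding-sequence reads (filled squares) and 3' UTR reads (open triangles) for 6 CaM kinase genes, on a log axis, at 1 h (orange) and 6 h (blue) with 95% counting intervals. The 3' UTR of Camk2a lies at 0.545 and 0.626, below its coding points at 0.823 and 1.05.

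The next members belong to the cascade. Camk1, which encodes CaMKI alpha (chr6:113284118-113293916, minus strand, 12 exons), had 75, 127 and 113 exonic reads at 0, 1 and 6 h, so both KCl libraries lay above the 0 h library. Its exonic ratio was 1.51 (1.13 to 2.04) at 1 h, the highest of the 10 members, and 1.42 (1.05 to 1.93) at 6 h. Its coding reads alone gave 1.45 (1.06 to 2.01) at 1 h and 1.45 (1.05 to 2.02) at 6 h, and its splice-junction reads numbered 13, 20 and 36 at 0, 1 and 6 h. Camk1 overlaps Ogg1 on the other strand, and reads were counted by strand. It is the only member that overlaps another gene model of the files.

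Camk1d, which encodes CaMKI delta (chr2:5214503-5635710, minus strand, 11 exons), had 299, 301 and 407 exonic reads at 0, 1 and 6 h. The 6 h library stands above both others. The exonic ratio was 0.898 (0.762 to 1.06) at 1 h and 1.29 (1.11 to 1.50) at 6 h over 0 h, and 1.43 (1.23 to 1.67) at 6 h over 1 h. Most of these reads lay in the 3' UTR, with 222, 233 and 322 at 0, 1 and 6 h. The 6 h to 0 h ratio of the 3' UTR was 1.37 (1.15 to 1.63), and that of the coding sequence was 1.05 (0.756 to 1.45). These intervals overlap, so no difference between the parts was shown. Camk1g, which encodes CaMKI gamma, a membrane-anchored form (chr1:195172540-195196476, minus strand, 13 exons), had 70, 93 and 101 exonic reads. Its ratios of 1.18 (0.860 to 1.64) at 1 h and 1.36 (0.996 to 1.88) at 6 h had intervals that include 1. The 6 h interval lay above 1 with DESeq2 size factors, at 1.38 (1.01 to 1.90), and with all mapped reads, at 1.51 (1.10 to 2.08), as did the 1 h interval with all mapped reads, at 1.40 (1.01 to 1.93).

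Camk4, the CaMKIV gene (chr18:33099010-33346580, plus strand, 11 exons), had 106, 92 and 112 exonic reads at 0, 1 and 6 h. Its exonic ratio over 0 h was 0.774 (0.579 to 1.03) at 1 h and 0.999 (0.759 to 1.32) at 6 h. The CaM kinase kinase genes were the lowest in reads. Camkk1 (chr11:72832510-72855575, plus strand, 16 exons) had 68, 69 and 65 exonic reads, with ratios of 0.905 (0.638 to 1.28) at 1 h and 0.904 (0.633 to 1.29) at 6 h. Camkk2, whose product also phosphorylates AMP-activated kinase (chr5:123183197-123214303, minus strand, 15 exons), had 64, 74 and 75 exonic reads, with ratios of 1.03 (0.728 to 1.46) and 1.11 (0.783 to 1.57). All exonic ratios of these 3 genes have intervals that include 1, so no exonic difference was detectable at this depth.

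Intronic reads, which in ribosome-depleted total RNA come mostly from unspliced transcripts, gave a readout apart from the exons. They were scaled by factors computed over intronic reads. At 1 h against 0 h, 9 members could be compared and 0 were called, beside 13.7% of the 8143 genes compared (7.48% higher and 6.19% lower). The interval lay above 1 for 1 member and below 1 for 4, beside 21.1% and 19.9% of all genes. At 6 h against 0 h, 1 of 9 was called, Camkk2, which was lower, beside 10.9% of 8236 genes (5.27% higher and 5.59% lower). The interval lay above 1 for 2 members and below 1 for 5, beside 22.9% and 15.9% of all genes. Camkk2 had 15 intronic reads at 6 h and 25 at 1 h, against 37 at 0 h, and its 6 h to 0 h ratio was 0.455 (0.232 to 0.849). At 6 h against 1 h it was the 1 member of 8 called, again lower, beside 12.9% of 7734 genes (7.07% higher and 5.79% lower), with a ratio of 0.494 (0.242 to 0.975). The interval lay above 1 for 1 member and below 1 for 2, beside 21.6% and 18.5% of all genes. With exonic scaling these counts were 6 and 0, and with total intronic reads 1 and 0. The Camkk2 call at 6 h against 1 h was lost when introns were scaled by exonic library sizes, with 0.636 (0.312 to 1.25), or by total intronic reads, with 0.513 (0.251 to 1.01). The members' median intronic log2 ratio was -0.11 at 1 h and -0.39 at 6 h over 0 h, and that of all genes was -0.05 and 0.05.

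The CaMKII genes parted in their introns. Camk2d had 936, 830 and 1368 intronic reads at 0, 1 and 6 h, and the scaled ratio over 0 h was 1.21 (1.10 to 1.33) at 1 h and 1.64 (1.51 to 1.78) at 6 h. Its 1 h ratio turned to 0.791 (0.719 to 0.869) with exonic scaling, while at 6 h it was 1.38 (1.27 to 1.50). Camk2b had 454, 256 and 313 intronic reads, with ratios of 0.768 (0.656 to 0.897) at 1 h and 0.773 (0.667 to 0.895) at 6 h. Camk2g had 230, 126 and 156, with ratios of 0.746 (0.595 to 0.931) and 0.761 (0.617 to 0.936). In both genes each KCl library lay below the 0 h library, whichever of the 3 intronic scalings was used. Camk2a had 163, 142 and 184 intronic reads, and its ratios were 1.19 (0.940 to 1.49) at 1 h and 1.27 (1.02 to 1.57) at 6 h, where its exons gave 0.640 and 0.792. With exonic scaling its intronic ratio was 0.777 (0.616 to 0.979) at 1 h and 1.07 (0.860 to 1.33) at 6 h. Camk4 had 156, 79 and 105 intronic reads, with ratios of 0.689 (0.519 to 0.909) and 0.755 (0.584 to 0.973). Exonic scaling moved the median log2 intronic ratio of all genes to -0.66 at 1 h and -0.19 at 6 h.

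Single introns and exons, named after their values were seen, are set beside the whole genes. Whether a difference belongs to a position along the gene was not tested. The first intron of Camk2b, 36512 bases long, had 65 and 106 reads at 1 and 6 h, against 159 at 0 h. Its ratios were 0.556 (0.410 to 0.747) at 1 h and 0.748 (0.579 to 0.962) at 6 h. All introns of the gene together gave 0.768 and 0.773. Exon 1 of Camk2b had 28 and 15 reads, against 8 at 0 h, with a 1 h ratio of 3.12 (1.39 to 7.93). It reached 20 reads only in the 1 h library. The reads joining exon 1 to exon 2 numbered 9, 6 and 13 at 0, 1 and 6 h. Exons 20 and 21 of the gene went the other way at 1 h, with ratios of 0.530 (0.351 to 0.791) and 0.859 (0.750 to 0.984). The first intron of Camk4, 138448 bases long, had 42 and 70 reads at 1 and 6 h, against 104 at 0 h. Its ratios were 0.550 (0.375 to 0.794) at 1 h and 0.755 (0.549 to 1.03) at 6 h. All introns of Camk4 together gave 0.689 and 0.755. Among introns of Camk2d with at least 20 reads in a library, 14, 15 and 17 had the highest 6 h ratios. Intron 14 had 175 reads at 6 h, against 95 at 0 h, a ratio of 2.07 (1.60 to 2.68). Intron 15 had 81, against 34, a ratio of 2.67 (1.77 to 4.11), and intron 17 had 173, against 88, a ratio of 2.20 (1.70 to 2.88). Intron 16, between them, gave 1.67 (1.14 to 2.47), and intron 6, with 20 reads at 6 h, against 11 at 0 h, gave 2.04 (0.931 to 4.71). The long intron 2, with 302 reads at 6 h, against 236 at 0 h, gave 1.44 (1.21 to 1.71). With 268 reads at 1 h its ratio was 1.55 (1.29 to 1.85). These single-intron ratios use the intronic scaling and depend on it as the whole gene does. The 1 h intronic ratio of all Camk2d introns went from 1.21 to 0.791 with exonic scaling. Of the members' 151 introns, 35 had at least 20 reads in a library, and of 161 exons 31 did.

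**Figure D4:**
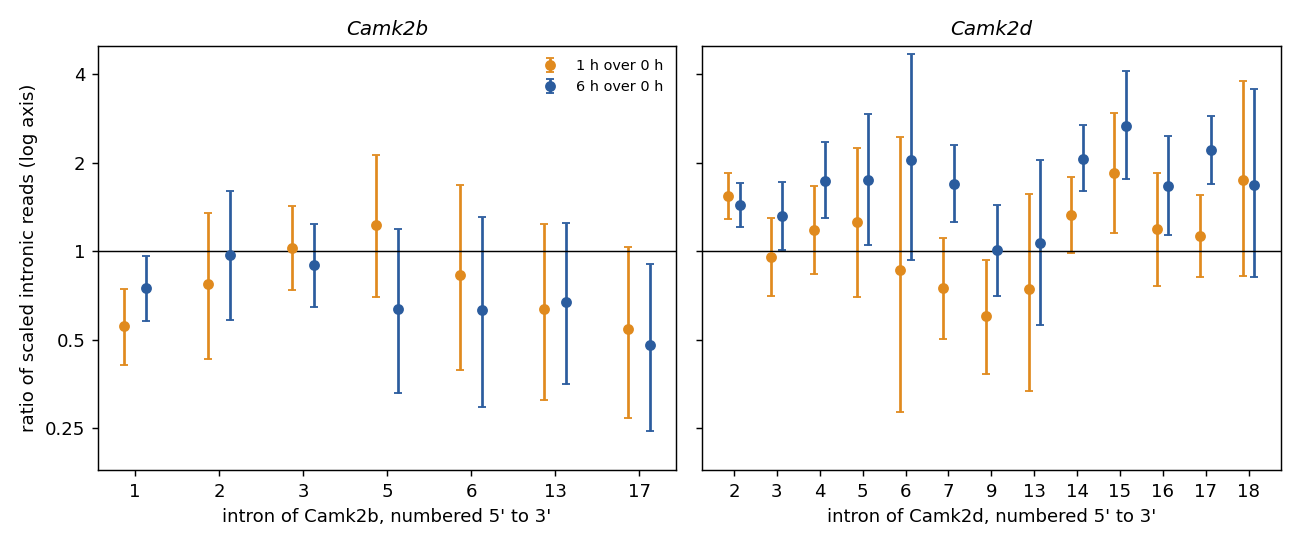
Ratio over the 0 h library of scaled reads in single introns of Camk2b (left) and Camk2d (right) with at least 20 reads in a library, numbered 5' to 3', on a log axis with 95% counting intervals. At 6 h (blue) introns 14, 15 and 17 of Camk2d lie at 2.07, 2.67 and 2.20, and intron 1 of Camk2b at 1 h (orange) lies at 0.556.

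Splice-junction reads also showed which exons were joined. In Camk2d, 11, 10 and 13 reads at 0, 1 and 6 h joined exon 6 to exon 8, against 1, 0 and 1 reads that joined exon 7 to exon 8. No read lay within exon 7 in any library. Exons 6 and 7 are both 73 bases long, and the gene model joins 3 transcripts. Whether these exons are alternatives to each other, or whether exon 7 can be mapped uniquely, was not tested. All other junctions between exons that are not neighbours had at most 5 reads in a library in the 10 genes.

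Camk1d carried a load of intronic reads far above its exons. It had 14786, 7940 and 9240 intronic reads at 0, 1 and 6 h, so that introns made up 98.0%, 96.3% and 95.8% of its sense reads, and its rank among all genes in intronic reads was 5, 6 and 11. Intron 3 alone, 82942 bases long, held 14238, 7593 and 8832 of them. That was 103.7, 87.4 and 86.4 times the density of its other introns, which had 1.65, 1.05 and 1.23 reads per kilobase. The intron 3 ratio over 0 h was 0.726 (0.706 to 0.746) at 1 h and 0.696 (0.677 to 0.714) at 6 h. The other introns together had 347 and 408 reads at 1 and 6 h, against 548 at 0 h, with ratios of 0.862 (0.751 to 0.988) and 0.835 (0.733 to 0.951), so the intronic ratio of the whole gene, 0.731 (0.711 to 0.751) and 0.701 (0.683 to 0.719), lies near that of intron 3. Where in the intron the reads lie was not analysed here. In the GENCODE M21 annotation of GRCm38, the only other gene model overlapping Camk1d is Gm13216, a processed pseudogene on the opposite strand.

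**Figure D5:**
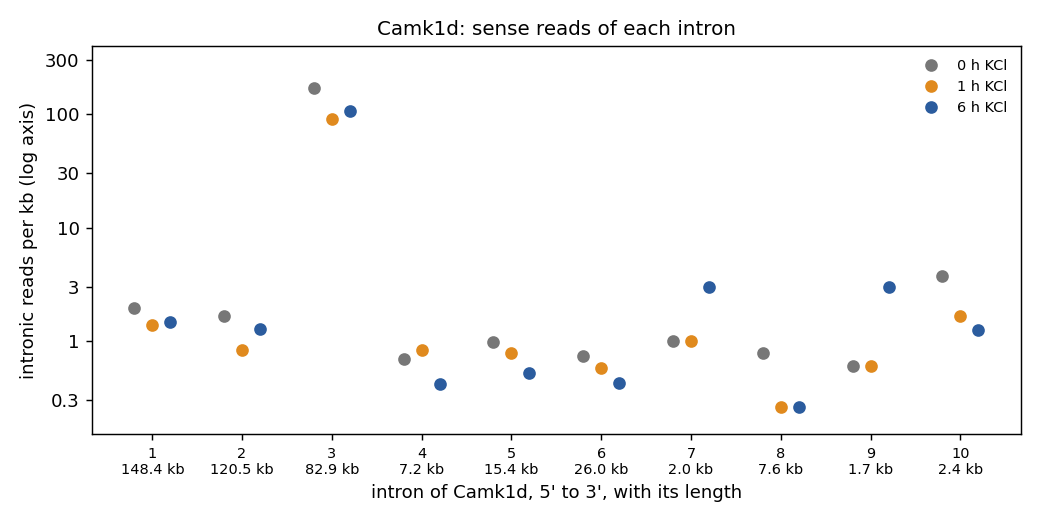
Sense reads per kilobase in each intron of Camk1d from 5' to 3', with its length, on a log axis, at 0 h (grey), 1 h (orange) and 6 h (blue). Intron 3 lies far above the others, at 171.7 reads per kilobase at 0 h, 91.5 at 1 h and 106.5 at 6 h.

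The number of exonic reads per intronic read was compared between times and set beside the median of all genes, which needs no scaling of the libraries. At 6 h over 0 h the median change over 6249 genes was 1.13-fold. The highest among the members were Camkk2 at 2.87-fold (1.39 to 6.18), Camk1 at 2.36-fold (1.08 to 5.32) and Camk1d at 2.18-fold (1.87 to 2.54). Camkk2, with 15 intronic reads at 6 h, and Camk1, with 14, fall short of the minimum set for the median. The intronic reads of Camk1d are nearly all in intron 3. Camk2a, at 0.742-fold (0.548 to 1.00), and Camk2d, at 0.935-fold (0.820 to 1.07), were the members under 1. At 1 h over 0 h the median over 6042 genes was 1.44-fold, and the members ran from 0.824-fold (0.599 to 1.13) for Camk2a to 2.36-fold (0.793 to 7.93) for Camkk1, which had 6 intronic reads at 1 h and 14 at 0 h.

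The promoters of 3 members are shown because CaMKIV acts on CREB and these genes differ in their exonic values: Camk1 with the highest ratio at 1 h, Camk2d with the separated ratio at 6 h, and Camkk1 with nearly equal reads at all times. Each run is the 250 bases before the gene's start on its own strand, from RefSeq on GRCm38.p6, with a CREB half-site TGACG in capitals where there is one. They are chr6:113343923-113344172 (minus strand) for Camk1, chr11:73018738-73018987 (plus strand) for Camkk1 and chr3:126596701-126596950 (plus strand) for Camk2d.
Camk1: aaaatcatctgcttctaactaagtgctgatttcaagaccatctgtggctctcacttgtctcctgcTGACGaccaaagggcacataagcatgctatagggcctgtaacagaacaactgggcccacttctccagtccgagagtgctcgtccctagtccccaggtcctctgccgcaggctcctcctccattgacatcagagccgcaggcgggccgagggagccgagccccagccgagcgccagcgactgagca
Camkk1: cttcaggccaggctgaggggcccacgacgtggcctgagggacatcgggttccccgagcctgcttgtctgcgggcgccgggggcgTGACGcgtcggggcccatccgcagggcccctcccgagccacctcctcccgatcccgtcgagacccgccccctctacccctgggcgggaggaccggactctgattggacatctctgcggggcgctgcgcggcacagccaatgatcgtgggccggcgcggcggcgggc
Camk2d: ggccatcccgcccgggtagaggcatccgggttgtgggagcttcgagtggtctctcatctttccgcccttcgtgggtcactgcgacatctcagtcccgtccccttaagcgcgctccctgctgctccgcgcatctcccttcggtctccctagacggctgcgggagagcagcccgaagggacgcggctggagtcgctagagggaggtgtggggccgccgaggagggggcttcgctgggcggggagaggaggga
RefSeq windows of 7 of the 10 genes, 8 windows in all, were searched. No window was found for Camk2g. Camk2a and Camk4 were left out of the search, so it says nothing of their promoters. TGACG, searched on both strands, was in the windows of Camk1, starting 185 bases before the gene's start, and of Camkk1, 166 bases before it. It was in 17.8% of 32851 mouse promoter windows of that length. The full CREB site TGACGTCA, which contains the half-site, and the AP-1 site TGANTCA, both searched on both strands, had no match in the 8 windows and were in 1.55% and 6.75% of all windows. These matches are letters in a window and say nothing of a factor's binding.

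Other genes of the pathway were taken from 6 lists of 95 entries. Of calmodulin and its buffers, 7 of 10 genes could be compared and 0 were called at 1 or 6 h against 0 h, with a median log2 ratio of 0.16 at 1 h and 0.33 at 6 h, beside 0.01 and 0.00 over all genes. Of CaMKII inhibitors and phosphatases acting on CaM kinases, 0 of the 8 compared were called, with medians of 0.13 and 0.39. In the calcineurin list, which holds the calcium-activated phosphatase and its regulators, it was also 0 of 8, with medians of 0.05 and 0.10.

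The lists of kinases, substrates and calcium channels held the called genes, beside 1.58% of all genes higher and 1.43% lower at 1 h and 4.92% higher and 5.42% lower at 6 h. Of 17 other kinases of the CaMK group, 1 was higher at 1 h, and 2 were higher and 1 lower at 6 h, with medians of 0.04 and 0.14. Snf1lk (Sik1), a kinase that restrains CREB coactivators, had 107, 391 and 322 exonic reads at 0, 1 and 6 h, with ratios of 3.26 (2.63 to 4.07) at 1 h and 2.85 (2.28 to 3.58) at 6 h. Prkaa2, a catalytic subunit of AMP-activated kinase, had 191, 256 and 405 reads, with 2.01 (1.68 to 2.39) at 6 h. That call lies at the limit of 2 and was lost with total exonic reads, at 1.87, and with TMM factors over genes with at least 20 reads, at 1.98. Pskh1 had 57, 48 and 27 reads and was 2.23-fold lower (1.39 to 3.67) at 6 h.

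Of 21 genes compared in the list named nuclear and synaptic substrates, 0 were called at 1 h. At 6 h 3 were higher, where 4.92% of all genes were. The list's medians were -0.22 at 1 h and -0.05 at 6 h. Hdac9, a class IIa histone deacetylase, had 256, 278 and 884 reads, with a 6 h to 0 h ratio of 3.27 (2.84 to 3.77). Crem, a relative of CREB that includes repressor forms, had 29, 53 and 123 reads, with 4.01 (2.66 to 6.24). Mef2c, a transcription factor that class IIa deacetylases hold in check, had 291, 335 and 751 reads, with 2.44 (2.13 to 2.80). Of 20 genes of calcium entry and release, 0 were called at 1 h and 1 was lower at 6 h, where 5.42% of all genes were, with medians of -0.23 and -0.07. It was Cacna1d, which encodes an L-type calcium channel subunit, with 203, 196 and 69 reads, 3.11-fold lower (2.36 to 4.15) at 6 h.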

How the data were processed

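Total RNA of 1 library per time was depleted of ribosomal RNA, fragmented, ligated with its direction kept and sequenced on a SOLiD instrument after PCR, per the labels' protocols. The submitters' processing notes name the build mm9. The authors' deposited counts are whole reads of 35 bp per gene feature and strand, per the counting logs. They map to 1 place in the genome or in a library of exon pairs, allow up to 3 mismatches, and repeated reads were kept. No aligner is named in the sources used here. The deposited coverage signal, which the authors scaled to 10000000 mapped reads and corrected for mappability, was used as an alternative only. Reads carry no molecular identifiers, so intervals and the limit of 3 reads for a count of 0 cover counting error only. Uniquely mappable exon sequence was 0.891 (Camk1) to 0.975 (Camk4) of the members' exon length.

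Exonic reads, which include splice-junction reads, were scaled with TMM factors over exonic counts (edgeR 4.0.16 under R 4.3.3). Intronic reads were scaled with TMM factors over intronic counts. Ratios have exact Clopper-Pearson 95% intervals from the split of a gene's reads between 2 libraries, changes of exonic per intronic reads and of ratios between genes have exact conditional intervals, and levels per length have Poisson intervals (Python 3.11.15 with pandas 2.3.3, numpy 2.4.6 and scipy 1.17.1). A gene was compared when 1 of the 2 libraries had at least 20 reads. For log2 ratios 0.5 reads were added to each count. The ratio code was tested on simulated data. Alternatives were total exonic reads, DESeq2 1.42.0 size factors, all mapped reads, TMM factors over genes with at least 20 reads, minimums of 10 and 50 reads, the deposited coverage, and exonic or total scaling of introns.

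Coordinates and exon numbers of genes are those of the deposited files on mm9, and promoter sequences are from RefSeq on GRCm38.p6. Of 136 list and marker entries, 127 matched the files by symbol and 9 by gene ID. The text names all 10 members and, from the pathway lists, the genes called at 1 or 6 h against 0 h (at most 6 a list). The markers Gad1, Lhx6, Slc17a7, Slc17a6, Neurod2, Emx1 and Neurod1 were chosen after their values were seen. Members and lists were chosen with earlier results of these data known. The other-strand, 3' UTR, single-exon, single-intron and promoter values were looked at after the whole-gene values.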

Additional observations from a re-analysis of the deposited data

How the results depend on the processing

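With 1 library per time, no library could be left out and no test between times could be made. No paired analysis was possible because each time has 1 library. Members with few reads are measured loosely, as with Camkk1, whose 1 h to 0 h interval runs from 0.638 to 1.28. No called gene changed direction, and no member was called in its exons under the other scalings. The minimums of 10 and 50 reads could not change this, since every member had at least 64 exonic reads in each library. Of the members' ratios under the alternatives, 199 exonic ones stayed within the interval of the reported ratio and 11 did not. The 199 include the entries for the read minimums, which cannot move a ratio, so that count overstates how stable the ratios are. Of the intronic ones 41 stayed and 22 did not.

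Scaling by all mapped reads moved the median log2 ratio of all genes to 0.25 at 1 h and 0.15 at 6 h over 0 h. At 1 h it gave 296 genes higher and 52 lower, where TMM gave 159 and 144, so that 85.1% of calls were higher and not 52.5%. At 6 h over 0 h, 64.5% of calls were higher by mapped reads and 35.6% by total exonic reads, where TMM gave 47.6%. At 6 h over 1 h these shares were 36.0%, 35.4% and 47.4%. At 1 h over 0 h, mapped reads put the exonic ratios of Camk2b, Camk2d, Camk2g and Camk1d at 1.10, 1.17, 1.19 and 1.06, and the deposited coverage put them at 1.10, 1.17, 1.18 and 1.06, so that Camk2b, Camk2d and Camk1d crossed 1, as did Camkk1 at 1.07 by mapped reads. Camk4, at 0.999 at 6 h over 0 h, crossed 1 with mapped reads, at 1.11, and DESeq2 size factors, at 1.01, and Camkk1 with mapped reads, at 1.00. Camkk1 at 6 h over 1 h, at 0.999, was at 1.00 with DESeq2 size factors. At 6 h over 0 h, Camk2b was at 0.975 by mapped reads and 0.974 by coverage, and Camk2d at 1.43 by mapped reads. A minimum of 50 reads left 82 genes higher and 51 lower at 1 h over 0 h, and 235 lower at 6 h over 0 h and 229 lower at 6 h over 1 h, since fewer genes were compared; 60.0% of calls at 6 h over 0 h were then higher.

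Introns moved most. With exonic scaling, the 1 h to 0 h ratios were 0.777 for Camk2a, 0.503 for Camk2b, 0.791 for Camk2d, 0.489 for Camk2g, 0.452 for Camk4, 0.479 for Camk1d and 0.861 for Camk1g, and Camk2g, Camk4 and Camk1d were then called lower, beside 2214 genes lower and 211 higher under that scaling, against 504 and 609 with intronic TMM. Of intronic calls, 8.70% were then higher at 1 h over 0 h, 22.8% at 6 h over 0 h and 85.4% at 6 h over 1 h; total intronic reads gave 33.5%, 32.6% and 59.9%, and intronic TMM 54.7%, 48.5% and 55.0%. Camk2a, Camk2d and Camk1g, and Camk1 at 0.730, then lay below 1. At 6 h over 0 h they were 0.652 for Camk2b, 1.38 for Camk2d and 0.591 for Camk1d. At 6 h over 1 h they were 1.37 for Camk2a, 1.30 for Camk2b, 1.75 for Camk2d, 1.31 for Camk2g and 1.23 for Camk1d. With total intronic reads, Camk2d was at 1.05 (1 h over 0 h) and 1.48 (6 h over 0 h), and Camk1d at 0.637, 0.633 and 0.994 in the comparisons of 1 h and 6 h with 0 h and of 6 h with 1 h. The Camk1d call with exonic scaling rests on intron 3, which held 7593 of 7940 intronic reads at 1 h and 14238 of 14786 at 0 h. Leaving out that intron, an alternative chosen after seeing the data, gave 0.862 and 0.835 over 0 h at 1 and 6 h. Those 2 values use intronic TMM scaling. The single exons and introns scale by the same factors as their genes.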

Other observations

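Reads on the strand opposite to the members were few in exons, with at most 1 in any gene and library. In introns, Camk2d had 107, 101 and 95 opposite-strand reads at 0, 1 and 6 h, beside 936, 830 and 1368 sense intronic reads. Camk1d had 29, 9 and 5 and Camk4 had 13, 9 and 3. The 500 bp after the gene end held 18, 16 and 10 sense reads for Camk4, 15, 15 and 13 for Camkk2, and 14, 10 and 16 for Camk2d.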
